A study of Homo sapiens and Mus musculus with 9 samples.

Results

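Immediate early genes are switched on within minutes of a growth factor or stress signal, without new protein synthesis, and 10 of them are described here in the human embryonic kidney line HEK293: JUN, JUNB, FOSL1, IER2, IER3, IER5, KLF4, KLF6, DUSP1 and BHLHE40. They are the transcripts that the small RNA peak lists pair with these symbols, out of 5778 transcripts with a symbol. Of the 10, 9 had ribosome footprints that could be counted, out of 10281 transcripts, and all 10 had at least 1 small RNA peak. IER3 had a small RNA peak and no footprint values here.

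Each of the 9 groups of the series is a single library, so nothing is replicated. Ribosome profiling (Ribo-seq, sequencing of the mRNA pieces that ribosomes protect) was done on wild-type HEK293 cells in 4 groups: control, starved (starvation), and starved cells given a trans-RNA aimed at ATF4 (its main open reading frame), which encodes a factor of the stress response, in a pair of libraries called trans1 and trans2. The other HEK293 libraries are small RNA, from all small RNA (total) and enriched for RNA with a 5′ cap (capped), and 3 mouse liver libraries were not used here. Trans1 and trans2 carry identical treatment labels and were kept apart, and the labels do not say what the starvation medium lacked or for how long. Starved cells given an unrelated RNA are not among the groups, so the trans-RNA and its delivery cannot be told apart. HEK293 mRNA levels were not analysed here, so more mRNA and more ribosomes per mRNA cannot be told apart.

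Most of these genes encode transcription factors. JUN, JUNB and FOSL1 are subunits of AP-1, a dimer that binds DNA downstream of the JNK and ERK kinases, and DUSP1 is the phosphatase that switches those kinases off again. Their mRNAs are short-lived, many through AU-rich elements.

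Footprints of each transcript were scaled to 1000000 recovered footprints of the library (CPM). Depth was 10521352 footprints in control and 9279281 in starvation, against 6063966 in trans1 and 7429387 in trans2. A log2 ratio is given on CPM + 1, which understates the change of weakly covered genes, and a fold is the ratio of CPM itself. Brackets after a fold hold its exact 95% counting interval, which says nothing of how repeated cultures would vary. With 1 library per group there is no test, and a gene is called where its log2 ratio reaches 2-fold. Among markers of HEK293 cells, LIN28B had between 34.0 and 56.6 CPM and NEFL between 70.0 and 92.0 CPM in the 4 libraries. Markers of other cell types could not be checked, since nearly all lacked a symbol in the files.

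The promoters of JUN, KLF6, DUSP1 and IER5 are shown because the first 3 hold the cyclic AMP response element or a variant of it, a site at which AP-1 and ATF family factors can bind, and IER5 has the footprints before the start codon described further on. The sequences are from RefSeq (GRCh38.p14), from 250 bases before to 50 after the annotated start site, 5′ to 3′ on the gene's strand. They lie at chr1:58783998-58784297 (minus strand), chr10:3785160-3785459 (minus strand), chr5:172771146-172771445 (minus strand) and chr1:181088450-181088749 (plus strand). Capitals mark matches to TGACGTCA, TGACATCA, CACGTG (the E-box), TATAAA (the TATA box) or CCAAT on either strand.
JUN: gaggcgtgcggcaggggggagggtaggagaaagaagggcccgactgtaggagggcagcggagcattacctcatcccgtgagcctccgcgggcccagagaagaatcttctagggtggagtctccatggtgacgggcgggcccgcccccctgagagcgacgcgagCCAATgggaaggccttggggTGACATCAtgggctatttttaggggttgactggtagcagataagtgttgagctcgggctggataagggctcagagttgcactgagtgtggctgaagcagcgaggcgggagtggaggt
KLF6: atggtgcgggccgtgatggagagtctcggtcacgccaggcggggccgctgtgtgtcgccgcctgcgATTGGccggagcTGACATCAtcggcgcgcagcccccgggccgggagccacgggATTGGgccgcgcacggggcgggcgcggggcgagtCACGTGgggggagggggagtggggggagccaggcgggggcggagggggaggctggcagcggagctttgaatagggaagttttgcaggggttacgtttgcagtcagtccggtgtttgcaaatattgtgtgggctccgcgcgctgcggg
DUSP1: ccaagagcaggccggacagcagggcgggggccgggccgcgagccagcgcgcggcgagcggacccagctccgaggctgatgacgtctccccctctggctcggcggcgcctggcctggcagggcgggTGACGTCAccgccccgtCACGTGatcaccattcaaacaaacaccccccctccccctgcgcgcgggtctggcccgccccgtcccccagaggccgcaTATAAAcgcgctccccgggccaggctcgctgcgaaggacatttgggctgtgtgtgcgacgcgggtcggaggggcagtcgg
IER5: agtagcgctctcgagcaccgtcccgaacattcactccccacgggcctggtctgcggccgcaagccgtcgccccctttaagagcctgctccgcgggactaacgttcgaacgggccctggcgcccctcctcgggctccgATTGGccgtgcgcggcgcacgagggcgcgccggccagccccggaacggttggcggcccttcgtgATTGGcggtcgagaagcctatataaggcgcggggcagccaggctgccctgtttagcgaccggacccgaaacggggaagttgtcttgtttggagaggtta

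Promoters of 8 of the 10 genes were matched, without FOSL1 and IER3. The letters TGACGTCA stood in the DUSP1 promoter, 125 bases before the start site, and in 1.85% of 35116 promoters. The variant TGACATCA stood in JUN, 67 bases before the start, and in KLF6, 172 bases before, against 2.61% of all promoters. The E-box CACGTG, the site of BHLHE40 itself and of other helix-loop-helix factors, stood in BHLHE40, DUSP1, KLF4 and KLF6, against 7.26%. TATAAA stood 30 bases before the start in DUSP1 and 31 before in JUNB, against 11.5%, and CCAAT in IER5, JUN, JUNB and KLF6, against 34.6%. Other forms of the TATA box were not matched, so the stretch tatataag of IER5 stands unmarked. The AP-1 site TGAGTCA (4.95% of promoters), the ATF4 composite site TGATGNAA (3.62%) and the CArG box of serum response factor (1.29%) were in none of the 8 windows. The 8 promoters had a median GC content of 69.3%, against 58.7% over all promoters.

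As a group, the 9 genes drew 384 CPM in control and 441 in starvation, against 584 in trans1 and 652 in trans2. Per kilobase of coding sequence, DUSP1 was the highest in control at 107 CPM per kb, followed by JUN at 94.0, IER2 at 67.7 and IER5 at 57.7. In starvation the order was IER5 at 112, IER2 at 99.6, JUN at 90.3 and DUSP1 at 68.0 CPM per kb. JUN was the highest in both trans-RNA libraries, at 167 and 157 CPM per kb. KLF6 and FOSL1 were in the middle in all 4 libraries, and JUNB, KLF4 and BHLHE40 were the lowest 3 in each.

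**Figure D1:**
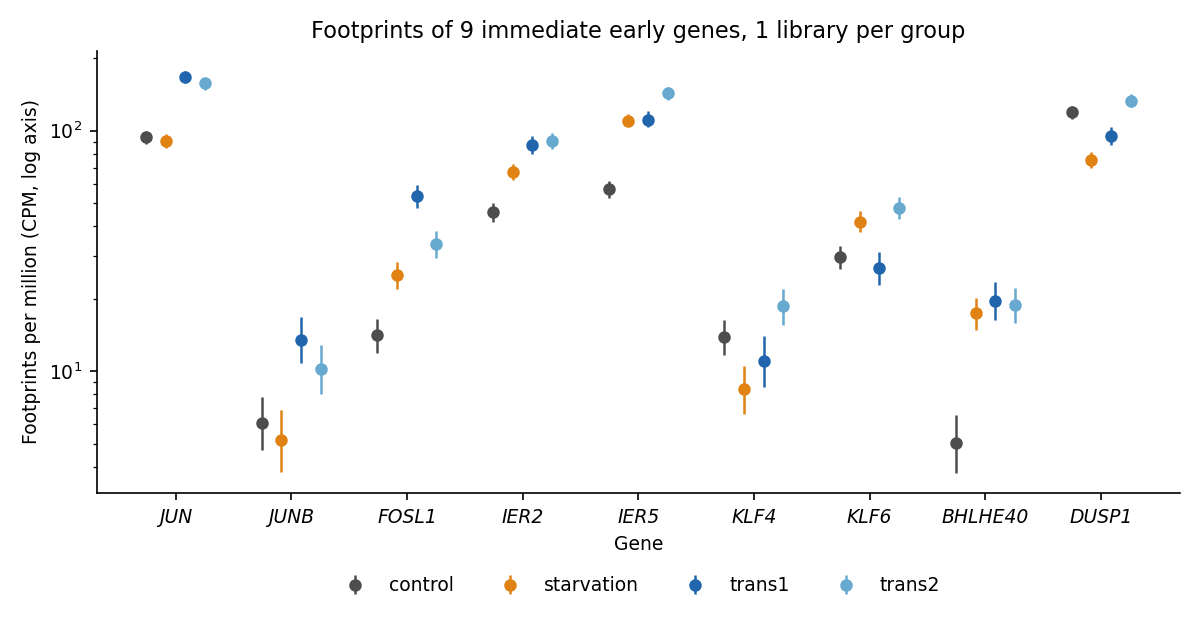
Footprints in CPM (log axis) of 9 immediate early genes in 4 HEK293 Ribo-seq libraries, 1 library per group. Points are the library's value and bars its exact 95% counting interval. JUN and JUNB are higher in both trans-RNA libraries than in control and starvation, whereas BHLHE40 is low in control alone.

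Starvation against control asks what nutrient loss alone does to these mRNAs. Footprints were higher for 5 of the 9 genes (BHLHE40, IER5, FOSL1, IER2 and KLF6) and lower for 4, with KLF4 and DUSP1 the lowest. The median log2 ratio was 0.48, where the median of all 10260 transcripts was 0.00 and 49.6% of them were above 0 and 50.4% below. BHLHE40 was the only gene called, where 2.69% of all transcripts were at least 2-fold higher and 1.88% at least 2-fold lower. Counting intervals lay above 1 for 5 genes and below 1 for 2, against 29.9% and 30.8% of all transcripts. At 1.5-fold, 3 genes were higher and 2 lower, where 10.4% and 10.1% of transcripts were.

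BHLHE40, a transcriptional repressor of the clock and hypoxia responses (chr3:4979437-4985323, GRCh38.p14), had 5.04 CPM in control and 17.4 in starvation, against 19.6 in trans1 and 18.8 in trans2. With all footprints, control stood apart and the 3 starved libraries lay within counting error of each other. The fold of starvation over control was 3.44 (2.51 to 4.79) from 53 and 161 footprints, higher than for 99.6% of transcripts. The log2 ratio of 1.60 stayed between 1.09 and 1.95 under 9 alternative settings. The second 100 nt of the coding sequence held 13 footprints in control and 45 in starvation, a 3.92-fold difference (2.08 to 7.93). With all footprints, neither trans-RNA library differed from starvation beyond counting error, at 1.13-fold (0.885 to 1.44) in trans1 and 1.09-fold (0.860 to 1.37) in trans2. Over the coding part of the windows around the start and stop codons, both were higher than starvation. There trans1 was at 1.56-fold (1.07 to 2.25) and trans2 at 1.52-fold (1.06 to 2.16).

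DUSP1, the nuclear phosphatase of ERK, JNK and p38 (chr5:172768096-172771195), had 119 CPM in control and 75.3 in starvation, against 94.8 in trans1 and 133 in trans2. With all footprints it was lowest under starvation alone and, in trans2, back above control. The folds were 0.633 (0.576 to 0.695) for starvation over control, 1.26 (1.13 to 1.41) for trans1 over starvation and 1.77 (1.61 to 1.95) for trans2 over starvation. All 3 of these ratios use the starvation library, so an opposite sign is partly built in. Trans2 against control, which does not use it, was 1.12 (1.03 to 1.22), and trans1 against control 0.797 (0.721 to 0.880). The last 300 nt of the coding sequence held 29.9 CPM in control and 14.4 in starvation, against 20.1 in trans1 and 24.5 in trans2. These are 315, 134, 122 and 182 footprints. The second 100 nt held 5.13, 2.48, 4.62 and 9.02 CPM, from 54, 23, 28 and 67 footprints. Trans2 over control was 0.818-fold (0.678 to 0.985) in the last 300 nt and 1.76-fold (1.21 to 2.56) in the second 100 nt. The place of trans2 above control thus depended on the region. In the authors' deposited table DUSP1 had a truncated frame at -0.49 for starvation, -0.14 for trans1 and 0.14 for trans2 against starvation. Medians over all truncated frames of that table were -0.03, -0.27 and -0.10.

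KLF4, a zinc finger factor of growth arrest and pluripotency (chr9:107484852-107489769), followed a like order at a lower level when all footprints were used. It had 13.9 CPM in control and 8.41 in starvation, against 11.0 in trans1 and 18.6 in trans2. Starvation over control was 0.606-fold (0.454 to 0.803). Trans2 over starvation was 2.21-fold (1.66 to 2.96), from 78 and 138 footprints, and trans1 over starvation 1.31-fold (0.934 to 1.85). The KLF4 value depended on the window: starvation against control was -0.66 on the log2 scale with all footprints, 0.38 from the start window and -1.10 from the stop window. The first 100 nt held 7 footprints in control and 3 in starvation, the next 100 nt 5 and 0, and the 100 nt after those 0 and 11. Over the coding part of the start and stop windows KLF4 had 6.65 CPM in control and 3.88 in starvation, against 2.97 in trans1 and 7.54 in trans2. There trans1, not starvation, was lowest, at 0.765-fold (0.409 to 1.38) over starvation. The call in trans2 against starvation, at 1.06 on the log2 scale, was lost with 5 of 9 alternatives, down to 0.81. The truncated frame of KLF4 in the authors' deposited table was at 0.05, beside a median of -0.10 over all truncated frames.

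**Figure D2:**
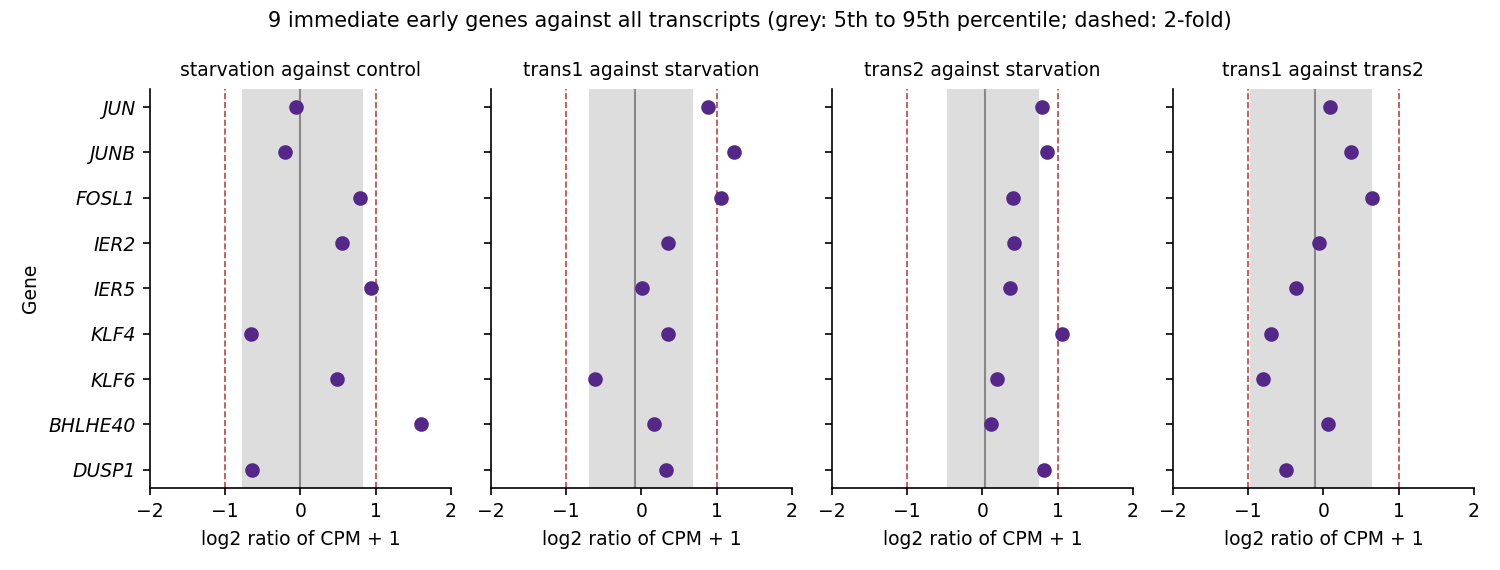
Log2 ratios of CPM + 1 of the 9 genes (points) in 4 comparisons. The grey band spans the 5th to 95th percentile of all transcripts, the grey line is their median and the dashed lines mark 2-fold; BHLHE40 and IER5 lie above the band under starvation, and JUN, JUNB and FOSL1 lie above it in trans1 against starvation.

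The trans-RNA libraries against starvation ask what the trans-RNA adds. With all footprints, the AP-1 genes JUN and JUNB carried 1.74 to 2.61 times the footprints of starvation in both trans-RNA libraries. FOSL1 did so mainly in trans1, and KLF4 and DUSP1 were highest in trans2. Over the coding part of the windows, FOSL1 was at 1.89-fold (1.41 to 2.56) in trans1 and 1.70-fold (1.27 to 2.27) in trans2. In trans1, 8 of 9 genes were above 0 and 1 below, against 41.7% and 58.3% of all transcripts, with a median of 0.36 beside -0.08 over 10239 transcripts. JUNB and FOSL1 were called, though neither under every alternative, where 1.60% of transcripts were at least 2-fold higher, and none was called lower, where 1.26% were. In trans2 all 9 genes were above 0, against 54.7% (45.3% below), with a median of 0.42 beside 0.04, and KLF4 was called, where 2.00% were higher and 0.390% lower. Counting intervals lay above 1 for 5 genes and below 1 for 1 in trans1 (18.9% and 32.0% of all transcripts), and above 1 for 7 genes and below 1 for none in trans2 (27.4% and 21.2%). At 1.5-fold, 3 genes were higher and 1 lower in trans1 (6.79% and 8.17% of transcripts), and 4 higher and none lower in trans2 (8.84% and 2.40%).

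JUN, the AP-1 subunit that JNK phosphorylates (chr1:58780791-58784047), had 93.9 CPM in control and 90.2 in starvation, against 167 in trans1 and 157 in trans2, from 837 to 1166 footprints per library. The trans-RNA libraries stood together above the other 2. Starvation over control was 0.961 (0.875 to 1.05), trans1 over starvation 1.85 (1.69 to 2.03) and trans2 over starvation 1.74 (1.59 to 1.90). Trans1 and trans2 did not differ beyond counting error, at 1.06-fold (0.977 to 1.16). The pattern along the coding sequence did differ between them. The last 300 nt held 35.1 CPM in starvation, 56.6 in trans1 and 47.1 in trans2. The first 100 nt held 1.72, 2.47 and 4.58 CPM, and the second 100 nt 1.40, 0.165 and 4.04, so that with the start window alone the log2 ratio was -0.08 in trans1 and 1.49 in trans2.

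JUNB, an AP-1 subunit that often opposes JUN (chr19:12791486-12793315), was weakly covered, with 6.08 CPM in control and 5.17 in starvation, against 13.5 in trans1 and 10.2 in trans2, from 64, 48, 82 and 76 footprints. Both trans-RNA libraries lay above both others. Trans1 over starvation was 2.61-fold (1.81 to 3.81) and trans2 over starvation 1.98-fold (1.36 to 2.90). The call in trans1 rests on few footprints: the log2 ratio of 1.23 was under 1 with 5 of 9 alternatives, among them 0.55 with the start window alone. Against control, the trans1 call was lost with 4 of 9 alternatives. In the authors' deposited table the truncated frame of JUNB was at 0.01 in trans1 and 0.04 in trans2 over starvation. Medians over all truncated frames of that table were -0.27 and -0.10.

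FOSL1 (FRA1), a FOS-type AP-1 partner (chr11:65892049-65900545), was the AP-1 gene that was also higher under starvation alone. It had 14.1 CPM in control and 25.1 in starvation, against 53.3 in trans1 and 33.7 in trans2, and no pair of these counting intervals overlapped. Starvation over control was 1.79-fold (1.45 to 2.21), trans1 over starvation 2.12-fold (1.79 to 2.52) and trans2 over starvation 1.34-fold (1.12 to 1.61). The highest position was the same in each library, 129 nt after the start codon, with 10, 21, 28 and 12 footprints. Without the highest position of each transcript, trans1 against trans2 was at -0.20 on the log2 scale instead of 0.65, and trans2 against starvation at 1.02 instead of 0.41. The trans1 call against starvation, at 1.06, was lost with 4 of 10 alternatives, down to 0.59 with the start window alone, and the trans2 call against control with the stop window alone. In the last 300 nt, FOSL1 had 30 footprints in control and 27 in starvation, against 45 in trans1 and 41 in trans2. In CPM these are 2.85, 2.91, 7.42 and 5.52.

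Against control, without the starvation library, the AP-1 genes were higher in both trans-RNA libraries with all footprints. FOSL1 was at 3.79-fold (3.11 to 4.63) in trans1 and 2.39-fold (1.94 to 2.95) in trans2, JUNB at 2.22-fold (1.58 to 3.13) and 1.68-fold (1.19 to 2.38), and JUN at 1.78-fold (1.63 to 1.94) and 1.67-fold (1.53 to 1.82). With the start window alone, JUN in trans1 against control was at -0.58 on the log2 scale, instead of 0.82. The lowest trans1 values of JUNB and FOSL1 under the alternatives were 0.44 and 1.11. Over the 9 genes the median with all footprints was 0.91 in trans1 and 0.73 in trans2. In trans1, 3 genes were called (BHLHE40, FOSL1 and JUNB), where 3.59% of transcripts were at least 2-fold higher, and none lower, where 4.52% were. In trans2, 3 were called (BHLHE40, IER5 and FOSL1), where 3.69% were higher and 0.906% lower. Above 0 lay 6 genes in trans1 and 9 in trans2 (45.3% and 54.5% of transcripts), and below 0 lay 3 and 0 (54.7% and 45.5%). With all footprints, all 9 counting intervals lay above 1 in trans2, against 32.5% of all transcripts (25.7% below 1). For 3 genes the sign in trans2 depended on the window. With the stop window alone the log2 ratio was -0.22 for DUSP1 and -0.18 for KLF4. With the start window alone it was -0.03 for KLF6. In trans1, 6 lay above 1 and 1 below, against 27.4% and 35.0%. At 1.5-fold, 6 genes were higher in trans1 and 7 in trans2, against 12.6% and 13.5%, and none lower, against 16.3% and 6.58%. These comparisons share the control library with starvation against control.

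IER2 and IER5 encode related nuclear proteins of the immediate early response, IER5 being also a target of heat shock factor. IER2 (chr19:13150411-13154911) had 45.7 CPM in control and 67.2 in starvation, against 86.7 in trans1 and 90.2 in trans2. The trans-RNA libraries were alike and above starvation, which was above control. Starvation over control was 1.47-fold (1.30 to 1.66), trans1 over starvation 1.29-fold (1.15 to 1.45) and trans2 over starvation 1.34-fold (1.2 to 1.5). The last 300 nt held 266, 425, 356 and 420 footprints, or 25.3, 45.8, 58.7 and 56.5 CPM, and the first 100 nt held 6.27, 5.71, 5.94 and 9.15 CPM. Over control, the last 300 nt were at 1.81-fold (1.55 to 2.12) in starvation, 2.32-fold (1.98 to 2.73) in trans1 and 2.24-fold (1.91 to 2.62) in trans2. The third 100 nt were at 0.889-fold (0.527 to 1.48) in starvation, 2.11-fold (1.34 to 3.35) in trans1 and 1.76-fold (1.12 to 2.79) in trans2, and the 30 nt before the start codon at 3.20-fold (1.78 to 5.91) in trans1.

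IER5 (chr1:181088700-181092900) had 56.9 CPM in control and 110 in starvation, against 111 in trans1 and 143 in trans2. All starved libraries were above control, at 1.94-fold (1.75 to 2.15) for starvation, 1.95-fold (1.75 to 2.18) for trans1 and 2.50-fold (2.26 to 2.77) for trans2. Many of its footprints lay before the start codon. In every library the highest position lay 12 nt before the start codon, with 47 footprints in control and 172 in starvation, against 129 in trans1 and 75 in trans2. In CPM these are 4.47 (3.28 to 5.94), 18.5 (15.9 to 21.5), 21.3 (17.8 to 25.3) and 10.1 (7.94 to 12.7). No source used here gives the offset of the footprint positions, so the codon held at that position is not named.

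Starvation and trans1 thus had the high values at this position, trans2 an intermediate one and control the low one. Starvation over control was 4.15-fold (2.99 to 5.86) there and 1.46-fold (1.25 to 1.71) over the coding part of both windows. For trans1 against control the coding part gave a log2 ratio of 0.31, where all footprints gave 0.95, and the first 100 nt and the third 100 nt were at 0.459-fold (0.194 to 0.978) and 0.321-fold (0.146 to 0.637). In trans2 against starvation the position was at 0.545-fold (0.410 to 0.718) while the coding part was at 1.41-fold (1.22 to 1.62) and these lay on opposite sides of 1. In trans1 against starvation the 30 nt before the start codon were at 1.30-fold (1.08 to 1.58) and the coding part at 0.877-fold (0.740 to 1.04). The first 100 nt of the coding sequence held 34, 22, 9 and 37 footprints, fewest in starvation and trans1, where the position before the start codon was highest.

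Of the footprints in the IER5 windows, the 30 nt before the start codon held 17.1% (13.3 to 21.4) in control and 38% (34.2 to 42.0) in starvation, against 48.0% (43.1 to 52.9) in trans1 and 22.4% (19.0 to 26.1) in trans2, with exact binomial intervals. Among transcripts with at least 100 footprints in the windows, from 4189 in trans1 to 5821 in control, the median share was between 0.999% and 1.95%. IER5 lay at percentile 95.5 in control and 99.0 in starvation, against 99.3 in trans1 and 97.9 in trans2. Over the 9 genes pooled the share was 7.34% in control and 13.3% in starvation, against 14.9% in trans1 and 8.69% in trans2, and over all transcripts 3.69%, 3.04%, 3.15% and 3.37%. Without IER5 it was 5.32%, 4.02%, 4.92% and 4.85%. The position 12 nt before the start codon alone held 13.2%, 27.6%, 30.6% and 13.4% of the IER5 window footprints. Over all transcripts pooled it held 1.10%, 0.843%, 0.681% and 0.995%, so footprints at this position are not particular to IER5. DUSP1 also had its highest position 12 nt before the start codon in starvation and trans2, with 20 and 28 footprints. It had 37 there in control, as many as at 1 position before the stop codon, and 18 in trans1. There the fold of starvation over control was 0.613 (0.337 to 1.08), beside 0.563 (0.478 to 0.662) for its coding part.

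**Figure D3:**
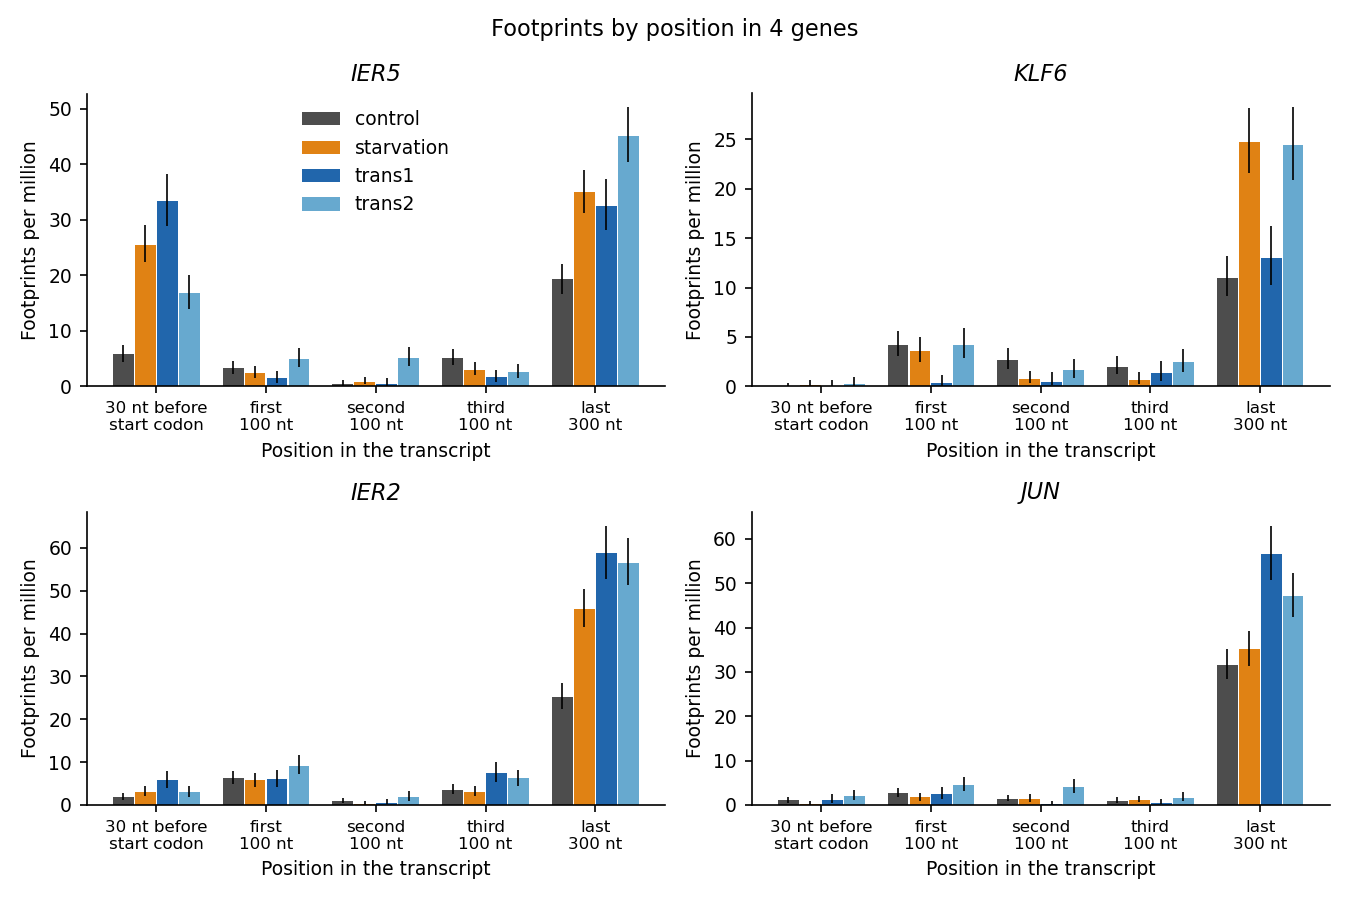
Footprints in CPM in 5 parts of the transcript for IER5, KLF6, IER2 and JUN, with bars for the 4 libraries and exact 95% counting intervals. IER5 holds 25.5 CPM before the start codon in starvation and 33.3 in trans1, against 5.80 in control, and the higher starvation value of KLF6 lies in the last 300 nt.

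KLF6, a zinc finger tumour suppressor (chr10:3775996-3785209), was the gene on which the trans-RNA libraries were furthest apart. It had 29.7 CPM in control and 41.7 in starvation, against 26.9 in trans1 and 47.6 in trans2, so that control and trans1 were low and starvation and trans2 high. Starvation over control was 1.41-fold (1.21 to 1.64), trans1 over starvation 0.645-fold (0.533 to 0.776), and trans2 over starvation 1.14-fold (0.986 to 1.32). The higher starvation value was in the last 300 nt, with 116 footprints in control and 229 in starvation, a 2.24-fold difference (1.78 to 2.82). The second 100 nt had 28 and 7, a ratio of 0.283 (0.105 to 0.664), and the log2 ratio over the start window alone was -0.75. In trans1 the first 100 nt held 2 footprints, where starvation had 33, trans2 31 and control 44. In the authors' deposited table the truncated frame of KLF6 was at 0.39 for starvation over control, -1.35 for trans1 and 0.00 for trans2 over starvation, against a median of -0.27 and a 5th percentile of -0.85 for truncated frames in trans1.

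Trans1 against trans2 compares the libraries that carry the same label. The median of the 9 genes was -0.06, beside -0.11 over 10244 transcripts, with 4 genes above 0 and 5 below (40.1% and 59.9% of transcripts), none of them called (1.31% of transcripts were called higher and 4.29% lower). FOSL1 was higher in trans1 with all footprints, at 1.58-fold (1.34 to 1.87). Over the coding part of the windows it did not differ beyond counting error, at 1.12-fold (0.849 to 1.47). KLF6 at 0.564-fold (0.466 to 0.681), KLF4 at 0.595-fold (0.437 to 0.802), DUSP1 at 0.711-fold (0.640 to 0.789) and IER5 at 0.780-fold (0.707 to 0.860) were lower in trans1. JUN, JUNB, IER2 and BHLHE40 did not differ beyond counting error. Over all transcripts 19.7% of counting intervals lay above 1 and 35.6% below. At 1.5-fold, 1 gene was higher and 2 lower, where 5.94% and 16.8% of transcripts were.

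The authors' deposited table gives log2 ratios per open reading frame for 7 of the 10 genes, with no frame of its main coding class among them. Its scaling is not stated. For IER5 a downstream frame was at -0.22 for starvation over control, 1.22 for trans1 and 1.5 for trans2 over starvation, where 1.63% and 0.452% of 2879 downstream frames were at least 2-fold higher in that table. The downstream frames of JUN were at -0.21, 1.18 and 0.28 and at 0.11, 0.93 and 0.23, and that of IER2 at -0.18, 0.00 and 0.52. The upstream frames of JUN were at 0.06, -0.43 and 0.04 and at -0.40, 0.20 and 0.18. For IER5 both upstream frames were at 0.32, 0.04 and -0.07, and the truncated frame at 0.28, -0.37 and 0.08. The truncated frame of JUN was at 0.08, 0.16 and -0.04 in the authors' deposited table, where the footprints recovered here gave -0.06, 0.88 and 0.79. Over all truncated frames of that table the medians were -0.03, -0.27 and -0.10, beside 0.00, -0.08 and 0.04 over all transcripts recovered here. The 95th percentiles of that table were 0.46, 0.04 and 0.18. JUN thus lay above the 95th percentile in trans1 against starvation, and below it in trans2 against starvation. Why the values of JUN differ between that table and the recovered footprints was not tested.

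In the coding parts of the windows, the share of footprints in the reading frame was between 67.2% and 77.0% for IER5, the lowest of the 9 genes in each library, and between 87.5% and 93.5% for DUSP1. Over all transcripts it was 85.7% in control and 86.4% in starvation, against 82.1% in trans1 and 83.1% in trans2.

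Other immediate early genes were taken from a list of 65 genes, of which 32 had a symbol in the peak lists and 19 had footprint values. Their median was 0.06 for starvation over control, 0.08 for trans1 and 0.41 for trans2 over starvation, with 11, 12 and 17 of 19 above 0. Of all transcripts, 49.6%, 41.7% and 54.7% were above 0. None was called under starvation, where 2.69% of all transcripts were called higher and 1.88% lower. In trans1 and in trans2, 1 was called higher, FOSL2 in both, where 1.60% and 2.00% of transcripts were. FOSL2, the FOSL1 paralog, had 11.5 CPM in control and 11.7 in starvation, against 25.1 in trans1 and 25.7 in trans2, that is 2.13-fold (1.66 to 2.75) and 2.19-fold (1.72 to 2.8) over starvation. HES1, a repressor of the Notch pathway, had 26.1, 30.6, 55.2 and 49.1 CPM, and IRF1, an interferon response factor, 6.94, 10.2, 16.5 and 17.2. JUND, the remaining JUN protein, had 69.2, 72.4, 67 and 78.3 CPM with log2 ratios between -0.22 and 0.18 in the 6 comparisons. ZFP36L1, which binds AU-rich elements and speeds mRNA decay, was low in trans1 alone, with 10.1, 7.87, 3.96 and 10.8 CPM and 106, 73, 24 and 80 footprints.

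Of 39 genes of the ERK, JNK and p38 kinase pathway, 5 had footprint values. Their median was 0.28 for starvation over control, -0.20 for trans1 and -0.05 for trans2 over starvation. None was called in any comparison, where between 1.31% and 3.69% of all transcripts were called higher and between 0.390% and 4.52% lower. With shares this small, no call among 5 genes says little. Of 31 factors that bind AU-rich elements or degrade mRNA, 10 had values, with medians of -0.29, -0.04 and 0.12. In trans1 against control 2 of them were called lower, where 4.52% of all transcripts were, ZFP36L1 and TIA1, a protein of stress granules, which had 12.3 CPM in control and 7.76 in starvation, against 4.95 in trans1 and 6.19 in trans2. Among 2396 transcripts with a symbol and at least 10 CPM in each library, the 3 log2 ratios closest to the medians of the 9 genes were those of LYST, TUB, ELK4, DOT1L and CABLES2, at Euclidean distances from 0.0860 to 0.177. ELK4, an ETS factor that binds with serum response factor, had 11.1, 14.9, 20.1 and 19.1 CPM.

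The small RNA libraries, labelled as control cells, show where short RNAs of the same genes lie. The capped library had 13 sense peaks in 8 of the genes, 9 of them in the 5′ UTR, or 69.2% (38.6 to 90.9), a share near the 61.7% of all 4521 sense peaks. The total library had 5 sense peaks in 4 genes, 2 of them in the 5′ UTR, where 12.8% of all 3416 were.

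IER2 had the highest of them. Its peak 132 nt before the start codon held 726 reads in the capped library and 11 in the total library, a ratio of 66.0 (36.7 to 133) that is not corrected for the depth of the 2 libraries. Among 1047 sense positions listed in both libraries, whose median ratio was 1.40, it lay at percentile 99.4. Its other peaks lay 134 nt before the start codon, with 115 reads, and 131 nt before, with 8. With 849 reads in all, IER2 ranked 4 of 1983 transcripts with a capped 5′ UTR peak, where the median was 7 reads. IER5 had 52 reads 203 nt before the start codon in the capped library. IER3, an inhibitor of apoptosis (chr6:30743199-30744547), had 50 reads 29 nt before its start codon, again in the capped library alone. They ranked 83 and 87 of 1983.

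The remaining 5′ UTR peaks were small. In the capped library JUNB had 11 reads 283 nt before the start codon, DUSP1 10 reads at 243 nt, FOSL1 5 reads at 49 nt and KLF6 4 reads at 175 nt, where 4 is the lowest number listed. JUN had 5 reads 973 nt before the start codon in the total library. Of these genes only IER2 had a 5′ UTR position listed in both libraries.

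Several peaks after the start codon were listed in both libraries. IER5 had 45 capped and 10 total reads 614 nt after the start codon, a ratio of 4.50 (2.24 to 10.0). KLF4 had 5 and 4 reads at 1347 nt and 8 and 6 at 1348 nt, near the end of its recovered coding length of 1443 nt. On the antisense strand, FOSL1 had 114 capped and 71 total reads at 681 nt, a ratio of 1.61 (1.18 to 2.19), and BHLHE40 75 and 72 at 663 nt, a ratio of 1.04 (0.744 to 1.46). These antisense peaks ranked 115 and 167 of 1810 in the capped library. The median ratio of 938 shared antisense positions was 1.29. BHLHE40 also had 5 antisense reads at 1702 nt and DUSP1 7 at 1216 nt, in the total library alone. The deposited lists place the DUSP1 peak and a KLF6 peak of 4 reads at 873 nt in the coding region, although they lie 109 and 18 nt beyond the recovered coding lengths of 1107 and 855 nt, as 241 of 2417 peaks with that label did.

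**Figure D4:**
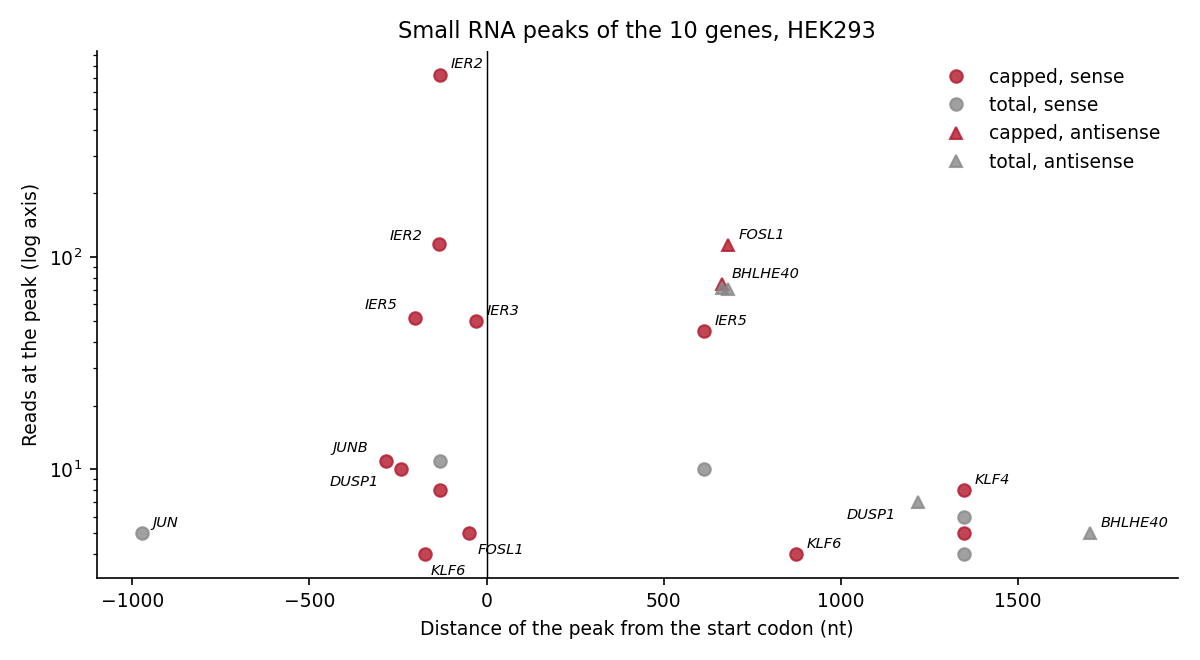
Reads at each small RNA peak (log axis) against its distance from the start codon for the 10 genes, in the capped (red) and total (grey) libraries, sense as circles and antisense as triangles. IER2 stands out at 726 reads 132 nt before the start codon, and the antisense peaks of FOSL1 and BHLHE40 at 681 and 663 nt hold 114 and 75 capped reads, against 71 and 72 in the total library.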

How the data were processed

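The 10 genes and the gene lists were chosen with earlier results of these data known. Per the submitters' processing notes, the tools include STAR 2.7.10a, Bowtie 1.2.3, cutadapt 2.8 and bcl2fastq 2.20.0.422, with no role or order, and the build named for Ribo-seq is GRCm39, although the files carry human transcript IDs. No source used here gives the footprint offset or the annotation. Per the labels, protected fragments of 25 to 35 nt were cut from the gel.

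The authors' deposited density tables hold a signal per position (footprints divided by that transcript's mean per coding nucleotide) from 30 nt before to 300 nt after the start codon and around the stop codon. Each value is a whole multiple of coding length divided by the transcript's reads. Length (a multiple of 3) and reads were recovered where at least 2 libraries had reads at 8 or more positions, for 10281 of 16984 transcripts, 10242 of them in all 4 libraries. Where a recovered length is only a divisor of the real length, reads are too low by one factor in each library, and whether the reads include those outside the coding region was not settled. The recovery was tried on simulated reads spread evenly along transcripts, and the 2-fold calls on simulated counts with counting error alone. Real profiles are uneven and cultures vary, so these simulations cannot show how reliable the calls between the libraries are.

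Transcripts with at least 1 CPM in 1 library compared were used, with a pseudocount of 1 CPM. Intervals are Clopper-Pearson 95% intervals for ratios and shares and exact Poisson intervals for levels. They hold counting error alone: PCR copies cannot be told from separate molecules here. The design assumed this measure, and no test between libraries is possible with 1 library per group. The authors' deposited log2 fold tables give 1 value per open reading frame, taken as the second named library over the first. The authors' deposited small RNA peak lists give the count of reads per peak, with a lowest value of 4, and the other value per peak is its distance from the start codon. Peak depth is unknown. Genes named are the 10 members, genes of the lists with at least 10 CPM in 1 library and a 2-fold difference in any comparison. ATF3, FOS, EGR1, MYC and IRF1 were to be named where present, and of these only IRF1 had footprint values. The 5 transcripts nearest the median pattern are named too. A few others of the lists, JUND and the HEK293 markers among them, were named after their values were seen. Python 3.11.15, numpy 2.4.6, scipy 1.17.1 and matplotlib 3.10.9 were used. Alternatives were other pseudocounts, windows, scalings, filters and call thresholds. Open reading frame lists and mouse liver tables were not used here.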

Additional observations from a re-analysis of the deposited data

Results flagged for a closer look

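KLF6 lay on opposite sides of 0 in the libraries that carry the same trans-RNA label, with a log2 ratio against starvation of -0.62 in trans1 and 0.19 in trans2. The difference was not tested, since each group has 1 library, and the trans2 value did not differ from starvation beyond counting error. Its trans1 value was between -1.12 and -0.54 under 10 alternatives, and its trans2 value between 0.07 and 0.72. In the authors' deposited table the truncated frame of KLF6 was at -1.35 in trans1 and 0.00 in trans2, so that it did not lie on opposite sides of 0 there. Medians over all truncated frames of that table were -0.27 and -0.10. Trans1 has the fewest footprints of the 4 libraries, 6063966, and the part of depth in this difference was not tested. In no group were there enough samples to look for a sample far from the others.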

How the results depend on the processing

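Medians of the 9 genes kept their sign under the alternatives run, except for trans1 against starvation with the authors' deposited table and for trans1 against trans2, at -0.06, which was 0.05 when centred on the median of all transcripts. With that table, over 6 genes with a truncated frame, the median log2 ratio was 0.04 for starvation against control, -0.08 for trans1 and 0.04 for trans2 against starvation, beside medians over all truncated frames of that table of -0.03, -0.27 and -0.10. With the stop window alone it was 0.13 for starvation against control and -0.38 for trans1 against trans2. With the start window alone it was 0.72 for trans2 against starvation and 0.61 for trans1 against control. Windows without the highest position gave 0.70 for trans2 against starvation, and the coding part of the windows, an alternative chosen after seeing the data, gave 0.63 for trans1 against control. The causes were not tested. With a threshold of 1.5-fold, higher and lower genes numbered 3 and 2 for starvation against control, 4 and 0 for trans2 against starvation, 6 higher for trans1 and 7 for trans2 against control, 1 and 2 for trans1 against trans2, and 3 and 1 for trans1 against starvation. At 2-fold with the start window alone, 5 genes were higher in trans2 against control, instead of 3. The 2 genes called higher in trans1 against starvation became 0 with that window, without the highest position, with the coding part of the windows and with a pseudocount of 5, and 1 with the stop window alone or with at least 10 CPM in both libraries. The 1 gene called in trans2 against starvation became 0 with the stop window alone, with a pseudocount of 5 and with at least 10 CPM in both libraries, and 2 with the start window alone or without the highest position. With at least 10 CPM in both libraries 1 gene was called higher in trans1 against control, instead of 3. Without the highest position of each gene, the pooled share before the start codon was 3.69% (control), 5.95% (starvation), 9.30% (trans1) and 5.28% (trans2), and counted from 15 nt before the start codon it was 7.23% in trans2. Sense peaks numbered 7 in the capped and 2 in the total library with at least 10 reads, and 9 in the total library with antisense peaks added. No paired analysis was possible because each group has 1 library.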
